A study of Mus musculus with 8 samples.

Results

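The first wave described here is the difference between a library of wild-type (WT) mouse embryonic fibroblasts given tumour necrosis factor (TNF) for 15 min and the WT library at 0 min. It covers 2 of the 8 libraries of the study and 13031 of its 45706 gene rows. A row was kept where the higher of the 2 WT libraries held at least 20 counts. The study sequenced chromatin-associated RNA, the fraction of RNA that is still attached to or close to the genes, from primary fibroblasts of C57BL/6 embryos. The groups were WT cells at 15 min of TNF and WT cells at 0 min, set beside WT cells at 45 and 60 min and beside cells of the genotype crel-/-rela-/- (KO) at 0, 15, 45 and 60 min. Cells of all groups had been kept overnight in 0.5% serum, and those at 15, 45 and 60 min received TNF at 10 ng/ml. Each genotype and time has 1 library, so no spread between cultures could be measured, no test was made, and every interval given covers counting error only. There was no untreated library at 15 min, so TNF, the time passed and the handling of the dishes cannot be told apart.

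TNF is an inflammatory cytokine that binds receptors on the cell surface and within minutes frees the transcription factor NF-kB from its inhibitor in the cytoplasm. NF-kB dimers, of which those holding RelA or cRel carry strong activation domains, then bind kB sites near chemokine, cytokine and adhesion genes and near the genes of their own inhibitors. The same receptor also turns on MAP kinases, which act through serum response factor, ternary complex factors, CREB and AP-1 on the immediate early genes. Those genes need no new protein to be transcribed, and fibroblasts are known for switching them on with serum, growth factors or the mere handling of a dish.

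The WT library held 14458783 counts at 15 min and 12359817 at 0 min. The 3 gene models Gm26917, Gm42418 and Gm23935 took 63.42% of the counts at 15 min and 56.05% at 0 min, and they were left out, which left 5288630 counts at 15 min and 5432508 at 0 min. Levels are counts per 1000000 of these remaining counts (CPM) after scaling by the trimmed mean of M values (TMM), and a ratio is the scaled count at 15 min over that at 0 min, with an exact 95% interval. Over the 8 libraries the 3 models took 56.05% to 68.97%. The fibroblast label held against the markers, since all 12 fibroblast markers were kept and summed to 24586 CPM at 15 min and 31342 CPM at 0 min. Of 11 macrophage and leukocyte markers 10 were also kept, summing to 231 CPM at 15 min and 265 CPM at 0 min in WT, against 24.1 and 22.7 CPM at the same times in KO. Of 8 neural markers 3 were kept, summing to 439 CPM at 15 min and 427 CPM at 0 min in WT, against 291 and 318 CPM in KO. Skeletal muscle markers summed to 8.38 CPM at 15 min and 10.8 CPM at 0 min in WT. Epithelial and erythroid markers summed to under 1 CPM in both WT libraries. In such bulk libraries fewer cells of a type and less RNA per cell cannot be told apart.

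Most transcripts were close to their starting level at 15 min. The median log2 ratio of the 13031 genes was 0.0046 (quartiles -0.22 and 0.20), and 97.4% of them lay within 2-fold. A gene was called where its ratio was at least 2-fold and the interval left out 1. By this rule 127 genes were higher at 15 min, or 0.975% of the genes kept, and 180 were lower, or 1.38%. The counts of called list members below stand against these shares. A row with under 20 counts in 1 library was kept only through the other, so the filter itself favours calls among such rows. Of the list members called higher, Cxcl2, Cxcl10, Ccl20, Ccl3, Tnf, Gdf15, Sele, Traf1, Nr4a3 and Idi1 were kept only through their 15 min counts. A list with 1 or 2 calls is not read as a result about the list. A further 36 genes passed 2-fold with an interval that held 1. Scaling to the remaining counts without TMM lowered every log2 ratio by 0.069 and gave 103 higher and 250 lower genes, so that higher calls made up 29.18% of all calls in place of 41.37%. Adding the 3 gene models to the library total shifted every log2 ratio by -0.334 and gave 48 and 700, or 6.417% higher. The half-width of an interval had a median of 0.35 on the log2 scale, and was 0.83 for the 2606 genes with 20 to 49 counts and 0.20 for the 5586 genes with at least 200. The lower calls sat mostly at low counts, with a median of 33 counts in the higher library, against 49 for the higher calls and 156 for all genes kept. Restricted to genes with at least 50 counts, 63 were higher and 41 lower.

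**Figure D1:**
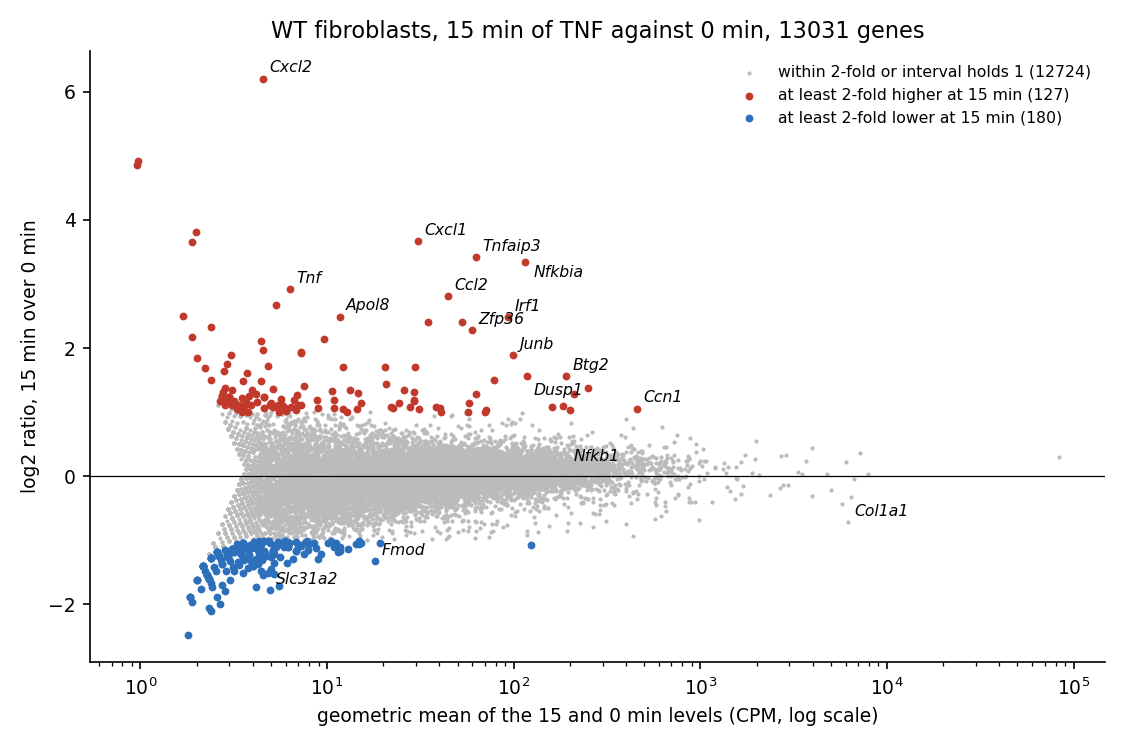
Log2 ratio of the scaled counts at 15 min over 0 min in WT against the geometric mean of both levels (CPM, log scale), 1 point per gene. The 127 higher genes reach up to Cxcl2 at 6.21, while the 180 lower genes lie mostly at low levels.

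The 15 genes with the highest ratios among those with at least 50 counts were chemokines (Cxcl2, Cxcl1, Ccl2, Cxcl10, Ccl7), inhibitors and feedback regulators of NF-kB (Tnfaip3, Nfkbia, Nfkbid), Tnf itself, Irf1, Ier3, Zfp36, Nlrp3, Junb and Apol8. The reference promoters of 9 genes are printed as examples in 2 overlapping groups, because the 2 branches named above are known to read different motifs. Each is the stretch up to 250 bases before the RefSeq start (GRCm38.p6, the patch release of the mm10 build), read 5′ to 3′ on the strand of the gene and stopped at the first base of the deposited gene. Capitals mark matches, on either strand, to the kB consensus, the AP-1 motif TGANTCA, the CRE motif TGACGTCA, the CArG box bound by serum response factor, and TATAAA.

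The promoters of the inhibitor gene Nfkbia (chr12:55492648-55492897, minus strand), the chemokine genes Cxcl2 (chr5:90903649-90903870, plus strand), Cxcl1 (chr5:90890995-90891240, plus strand) and Cxcl10 (chr5:92348890-92349139, minus strand), and the transcription factor gene Irf1 (chr11:53769764-53770013, plus strand) are shown as genes that led the wave.
Nfkbia: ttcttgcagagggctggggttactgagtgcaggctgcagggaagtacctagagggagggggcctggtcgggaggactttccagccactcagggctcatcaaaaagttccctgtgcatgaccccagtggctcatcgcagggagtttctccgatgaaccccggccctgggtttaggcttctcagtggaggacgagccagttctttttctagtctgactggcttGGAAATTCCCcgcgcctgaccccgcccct
Cxcl2: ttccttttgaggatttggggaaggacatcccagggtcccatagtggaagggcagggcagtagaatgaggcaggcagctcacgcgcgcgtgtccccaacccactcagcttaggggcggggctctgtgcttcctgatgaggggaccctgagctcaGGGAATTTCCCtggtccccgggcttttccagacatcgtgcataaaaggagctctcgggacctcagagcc
Cxcl1: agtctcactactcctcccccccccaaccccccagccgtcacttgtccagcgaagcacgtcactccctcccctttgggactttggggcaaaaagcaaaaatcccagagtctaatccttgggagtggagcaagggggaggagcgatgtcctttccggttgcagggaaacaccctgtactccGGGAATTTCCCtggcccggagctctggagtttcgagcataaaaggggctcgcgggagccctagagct
Cxcl10: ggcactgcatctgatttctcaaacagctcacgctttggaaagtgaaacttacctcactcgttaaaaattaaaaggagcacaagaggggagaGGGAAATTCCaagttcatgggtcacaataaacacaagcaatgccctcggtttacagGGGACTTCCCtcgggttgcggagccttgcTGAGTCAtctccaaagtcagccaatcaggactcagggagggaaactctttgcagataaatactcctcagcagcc
Irf1: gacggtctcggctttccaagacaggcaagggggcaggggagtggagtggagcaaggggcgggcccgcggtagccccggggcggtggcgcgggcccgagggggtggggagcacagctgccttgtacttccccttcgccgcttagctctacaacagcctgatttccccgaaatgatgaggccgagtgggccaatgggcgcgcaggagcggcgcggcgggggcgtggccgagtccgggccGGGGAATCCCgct
Cxcl2 and Cxcl1 hold the same run of 11 capitals, at 97 to 87 and 71 to 61 bases before the start, in which 2 kB matches overlap by all but 1 base at each end. The kB match of Nfkbia lies at 29 to 20 bases and that of Irf1 at 13 to 4 bases before the start. Cxcl10 holds kB matches at 159 to 150 and 103 to 94 bases and an AP-1 match at 74 to 68 bases. The other genes among the 15 highest with a reference promoter varied. Tnfaip3, Ier3 and Nlrp3 hold a kB consensus match in it, and Tnf, Nfkbid, Junb and Zfp36 hold none.

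The promoters of the immediate early genes Fos (chr12:85473640-85473889, plus strand), Dusp1 (chr17:26508520-26508722, minus strand), Btg2 (chr1:134079156-134079405, minus strand) and Zfp36 (chr7:28379256-28379478, minus strand) are shown beside them, as genes that were also called in KO. Of the genes printed above, Cxcl1 was called in KO too, and Zfp36 is itself among the 15 highest ratios.
Fos: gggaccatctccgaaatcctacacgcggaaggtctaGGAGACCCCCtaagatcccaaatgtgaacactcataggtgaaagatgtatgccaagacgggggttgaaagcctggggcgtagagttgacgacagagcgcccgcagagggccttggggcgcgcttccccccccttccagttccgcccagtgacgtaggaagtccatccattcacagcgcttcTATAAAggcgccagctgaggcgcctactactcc
Dusp1: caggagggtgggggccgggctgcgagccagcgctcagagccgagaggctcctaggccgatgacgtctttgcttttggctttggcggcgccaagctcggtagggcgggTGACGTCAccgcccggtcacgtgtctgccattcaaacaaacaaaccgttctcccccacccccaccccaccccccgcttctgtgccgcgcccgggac
Btg2: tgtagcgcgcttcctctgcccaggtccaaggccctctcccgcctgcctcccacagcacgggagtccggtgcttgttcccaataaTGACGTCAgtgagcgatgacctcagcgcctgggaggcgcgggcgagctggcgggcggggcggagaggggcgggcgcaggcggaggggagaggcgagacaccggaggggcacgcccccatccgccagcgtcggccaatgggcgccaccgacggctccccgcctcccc
Zfp36: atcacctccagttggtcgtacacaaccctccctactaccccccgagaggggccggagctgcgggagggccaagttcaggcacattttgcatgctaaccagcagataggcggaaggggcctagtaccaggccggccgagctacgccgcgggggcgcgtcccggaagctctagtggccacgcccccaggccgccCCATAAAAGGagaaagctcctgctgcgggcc
Dusp1 holds a CRE match at 143 to 136 bases before the start and Btg2 one at 166 to 159 bases. In Zfp36 the capitals are a CArG box at 58 to 49 bases. Fos holds TATAAA at 33 to 28 bases and a kB consensus match at 214 to 205 bases. These 4 do not stand for all genes called in both genotypes. Of those not printed, Ppp1r15a holds a CRE match. Junb, Egr2, Nr4a1 and Ccn1 hold no kB consensus, AP-1, CRE or CArG match in their reference promoters. A match describes the letters in the window and is neither a site nor a cause.

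A reference promoter whose start lay within 1000 bases of the deposited gene start was found for 8609 of the 13031 genes, for 58 of the 127 higher and for 122 of the 180 lower genes. The kB consensus was found in 15 of these 58 higher genes (25.9%), in 3 of the lower (2.46%), and in 4.33% of all. For a looser kB pattern, which fixes the runs of G and C at its ends and leaves the letters between them free, the shares were 70.7% of higher, 50.0% of lower and 62.7% of all promoters. TGANTCA stood in 7 higher promoters (12.1%) and 3.75% of all, TGACGTCA in 3 (5.17%) and 2.95%, and the CArG box in 1 (1.72%) and 1.13%. TATAAA was found in 11 (19.0%) of the higher, in 2.46% of the lower and in 5.74% of all promoters. The kB consensus stood in 8 of 34 higher genes whose top WT level was at 15 min and in 7 of 24 whose top level came at 45 or 60 min. These shares are over the whole window of 250 bases, and genes without a matched start are in none of them.

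Some genes of inhibitors and feedback regulators of NF-kB were among those higher at 15 min. Of 16 inhibitors and feedback regulators kept, 4 were called higher and none lower, with a list median of 0.39 against 0.0046 for all genes. Nfkbia (chromosome 12, 55489411 to 55492647), which encodes the inhibitor IkBalpha that holds NF-kB in the cytoplasm, had 1916 counts at 15 min and 204 at 0 min, a log2 ratio of 3.34 (95% interval 3.13 to 3.55). Tnfaip3 (chromosome 10, 19000910 to 19015657), which encodes the ubiquitin-editing enzyme A20, had 1086 counts at 15 min and 109 at 0 min, a log2 ratio of 3.42 (3.14 to 3.72). Nfkbid, whose product is a nuclear IkB protein, had 75 counts at 15 min and 21 at 0 min (1.94, interval 1.23 to 2.72), and Nfkbiz, another nuclear IkB protein, had 1507 and 793 counts at 15 and 0 min (1.03, interval 0.91 to 1.16). The 15 min count was thus above the 0 min count in all 4, and Nfkbiz is not called without TMM scaling. The other 12 were not called, and they ranged from values just short of 2-fold, as in Nfkbie with 95 counts at 15 min and 55 at 0 min (0.90), to values near 0, as in Tnip1, which encodes an A20-binding protein, with 205 and 214 (0.05). None of the 5 subunit genes was called, with log2 ratios of 0.85 for Nfkb2, 0.74 for Relb, 0.43 for Rela, 0.30 for Rel and 0.14 for Nfkb1, the last 2 being below 0 with the 3 gene models in the total.

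Many of the chemokine genes kept were higher, but Cxcl2, Cxcl10, Ccl20 and Ccl3 were kept only through their 15 min counts. The shares of kept genes called are therefore partly set by the filter. Of 12 CXC and CX3C chemokine genes 8 were kept and 4 called higher (Cxcl2, Cxcl1, Cxcl10, Cxcl5), with a median log2 ratio of 0.96. Of 15 CC chemokine genes 6 were kept and 5 called higher (Ccl20, Ccl2, Ccl7, Ccl9, Ccl3), with a median of 1.80. Cxcl2 (chromosome 5, 90903871 to 90905938), a neutrophil attractant, had 206 counts at 15 min and 3 at 0 min, and the interval of its log2 ratio of 6.21 runs from 4.64 to 8.50 because of the 3 counts. Cxcl1 (chromosome 5, 90891241 to 90893115), its close relative, lies 10.756 kb from it and had 577 counts at 15 min and 49 at 0 min, a log2 ratio of 3.67 (3.24 to 4.12). Reads shared by near-identical copies could be split differently between these relatives.

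The monocyte attractants Ccl2 and Ccl7 lie 8.259 kb apart on chromosome 11. Ccl2 had 619 counts at 15 min and 95 at 0 min (2.81, interval 2.50 to 3.14). Ccl7 had 638 counts at 15 min and 129 at 0 min (2.41, interval 2.14 to 2.70). Cxcl10, which attracts activated T cells and is also known as an interferon target, had 71 counts at 15 min and 12 at 0 min (2.67, interval 1.78 to 3.69). Cxcl5 was at 1.17 with 230 counts at 15 min and 110 at 0 min, and Ccl20 at 3.81 with 39 counts at 15 min and 3 at 0 min. The chemokine gene with the most counts, the stromal chemokine Cxcl12, was not called, with 1071 counts at 15 min and 1331 at 0 min, a log2 ratio of -0.21. Cx3cl1, which encodes the membrane-bound chemokine fractalkine, was not called at 36 counts at 15 min and 41 at 0 min.

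Of 24 cytokine and growth factor genes 11 were kept and 4 called higher, with a median of 0.33. Tnf had 91 counts at 15 min and 13 at 0 min (2.92, interval 2.07 to 3.88). Lif, an IL-6 family cytokine, had 233 counts at 15 min and 110 at 0 min (1.19), Ereg, an EGF receptor ligand, 119 and 58 (1.14), and Gdf15, a stress-induced member of the TGF-beta superfamily, 31 and 9 (1.89). Csf1, the macrophage growth factor and the gene of this list with the most counts, had 1455 counts at 15 min and 1254 at 0 min, a log2 ratio of 0.32.

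Some of the higher genes are better known from macrophages. Nlrp3, an inflammasome sensor, had 106 counts at 15 min and 26 at 0 min (2.14, interval 1.51 to 2.81). Rgs1, a regulator of G protein signalling in leukocytes, had 64 and 26 counts at 15 and 0 min (1.41), Ccl9 had 70 and 33 (1.19), and Cd14, the lipopolysaccharide co-receptor, had 56 and 28 (1.11). Clec4e, a lectin receptor of macrophages, had 27 counts at 15 min and 1 at 0 min (4.86, interval 2.26 to 10.22). In the KO library at 15 min these 5 genes held 0, 1, 3, 2 and 0 counts, and Tnf held 1. The macrophage and leukocyte markers moved with genotype and not upward with time. Ptprc had 168 counts at 15 min and 188 at 0 min in WT, Csf1r 222 and 230, Adgre1 112 and 132, and C1qa 46 and 95, whereas in KO Ptprc held 2 counts at 15 min and 1 at 0 min, and Adgre1 0 at both times. Of the 10 such markers kept in WT none was called, and the list median was -0.15. The part of these cells in the results of Tnf, Nlrp3 and the other genes of this paragraph, and of Cxcl2 and Tlr2 in comparisons with KO, was not tested.

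Some genes of the adhesion, survival and signalling lists were called as well, where 0.975% of all genes kept were higher. Of 13 adhesion and matrix proteolysis genes kept, 4 were higher (Sele, Vcam1 and Plau among them), with a median of 0.10. Vcam1, a leukocyte adhesion molecule, had 1403 counts at 15 min and 708 at 0 min (1.09, interval 0.96 to 1.23). Sele, the endothelial adhesion molecule E-selectin, had 28 counts at 15 min and 1 at 0 min (4.92, interval 2.32 to 10.27). In KO it had 6 counts at 15 min and 11 at 0 min. Of 8 endothelial markers 3 were kept in WT, and the list summed to 75 CPM at 15 min and 64.7 CPM at 0 min. Of 17 survival genes 4 were higher (Ier3, Traf1, Pim1, Gadd45b), with a median of 0.36. Ier3 had 422 counts at 15 min and 86 at 0 min (2.40, interval 2.06 to 2.75), and Birc3, which encodes the ubiquitin ligase cIAP2, was not called at 225 and 167 (0.54). Of 22 TNF receptor and signalling genes 2 were higher, the receptor gene Tlr2 (1.35) and Map3k8 (1.05, not called without TMM scaling), which encodes the kinase TPL2, and the list median was 0.07.

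In the interferon system Irf1 was higher, and no interferon-stimulated gene of the list was. Irf1 (chromosome 11, 53770014 to 53778374), a transcription factor that activates interferon-stimulated genes, had 1162 counts at 15 min and 224 at 0 min, a log2 ratio of 2.48 (2.28 to 2.70). It was the only one of 9 interferon regulatory factor genes kept to be called. Of 21 interferon-stimulated genes none was higher and 2 were lower, with a median of -0.37, where 1.38% of all genes kept were lower. The lower ones were Ifit3, whose product binds in complexes with other IFIT proteins, with 56 counts at 15 min and 124 at 0 min (-1.04, interval -1.52 to -0.57), and the immunity-related GTPase gene Igtp, with 28 and 67 counts (-1.15), which overlaps Irgm2 on the same strand. Of 15 genes of class I antigen presentation 1 was lower, the immunoproteasome gene Psmb9 with 13 counts at 15 min and 29 at 0 min (-1.05), which overlaps Tap1 on the opposite strand, and the median was -0.17.

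Immediate early genes formed the other large block of higher calls. Of 23 EGR, NR4A, IER and other serum-response genes kept, 11 were higher and none lower, with a median log2 ratio of 0.89. The one with the most counts was Ccn1, a secreted matrix protein and target of serum response factor and YAP, with 3477 counts at 15 min and 1805 at 0 min (1.05, interval 0.97 to 1.14). Its relative Ccn2 had 2122 counts at 15 min and 879 at 0 min (1.38, interval 1.27 to 1.49), and overlaps Gm15270 on the opposite strand. Btg2, an antiproliferative gene, had 1731 counts at 15 min and 630 at 0 min (1.57, interval 1.43 to 1.70). The transcription factor genes Egr3 (1.71), Egr2 (1.35), Nr4a3 (1.96) and Nr4a1 (1.29) were called as well, as were Phlda1 (1.43), Arc (1.31), Plk3 (1.08) and Ier2 (1.03). Of these, Ccn1 and Ier2 are not called without TMM scaling. Egr1, with 1620 counts at 15 min and 1118 at 0 min, was at 0.64 and not called.

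Of 13 AP-1 genes kept 3 were higher, and the list median was 0.73. Junb had 1002 counts at 15 min and 291 at 0 min (1.89, interval 1.70 to 2.08), Atf3 121 and 53 (1.30), and Fos 448 and 218 (1.15, interval 0.91 to 1.39). Jun was at 0.83 with 1420 counts at 15 min and 860 at 0 min, and Jund at -0.01. One of 13 MAP kinase phosphatase and Sprouty genes was higher, Dusp1, which switches MAP kinases off, with 1065 counts at 15 min and 390 at 0 min (1.56, interval 1.39 to 1.73). One of 11 mRNA decay genes was higher, Zfp36, which encodes tristetraprolin, a protein that promotes decay of Tnf and other AU-rich mRNAs, with 690 counts at 15 min and 153 at 0 min (2.28, interval 2.03 to 2.54). Ptgs2, the prostaglandin synthase COX-2, had 688 counts at 15 min and 263 at 0 min (1.5). Apol8, an apolipoprotein L gene, had 146 counts at 15 min and 28 at 0 min (2.49, interval 1.90 to 3.13) and belongs to none of these lists.

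Other pathways held few or no called genes. No member was called among 10 Kruppel-like factor genes (median 0.26), 15 TGF-beta, BMP and ID genes (0.13), 7 Notch and HES genes (0.01), 15 clock genes (0.20), 18 contractile and matrix genes (0.19, with members from -0.72 for Col1a1 to 0.99 for Actg1) and 15 housekeeping genes (-0.03). Of 22 genes of cholesterol synthesis 1 was higher, Idi1 at 37 counts at 15 min and 17 at 0 min (list median 0.28), and of 15 p53 targets 1, Btg2 (list median 0.21). The values nearest to the threshold were 1.01 for each of Cebpb, Pnrc1 and Ppp1r15a just inside it, and 0.998 for Fosl1 and Gem and 0.99 for Actg1 just outside.

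**Figure D2:**
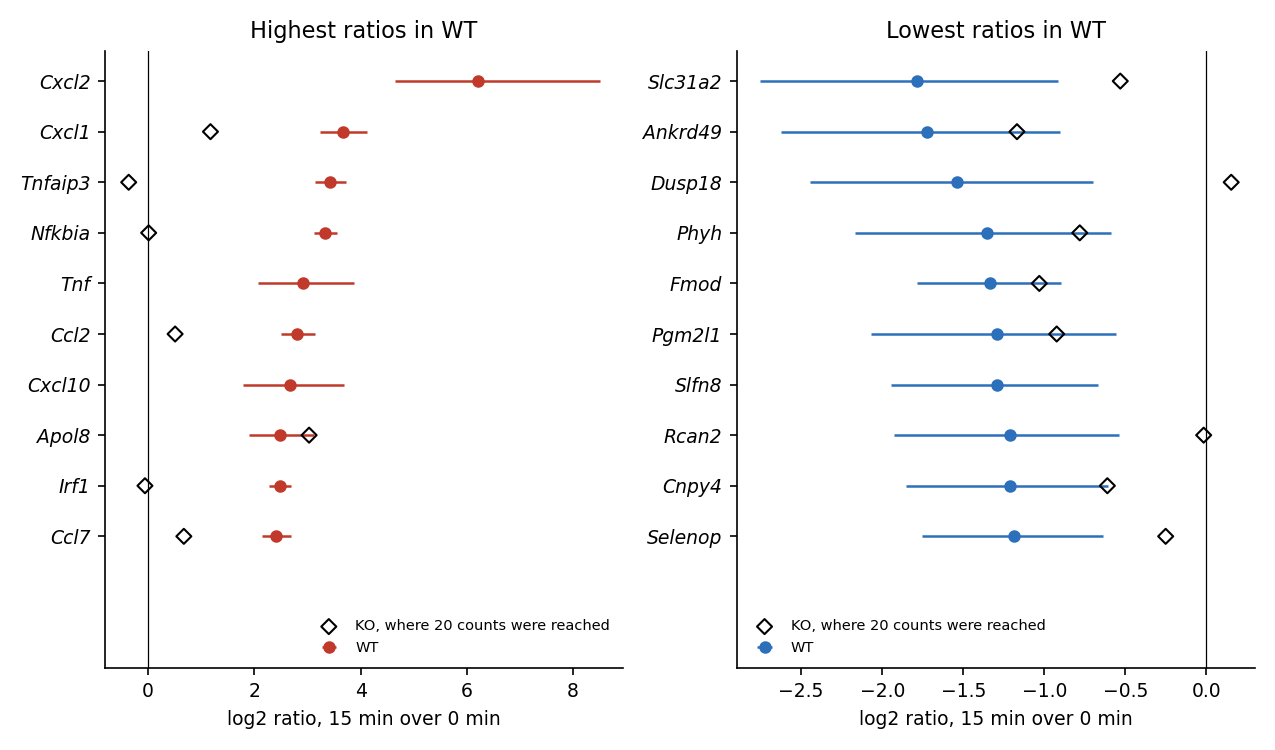
Log2 ratio of 15 min over 0 min for the 10 genes with the highest (left) and the 10 with the lowest (right) ratios in WT among those with at least 50 counts; dots are WT with exact 95% intervals and open diamonds are KO where 20 counts were reached. Nfkbia stands at 0.01 in KO and 3.34 in WT, and Apol8 at 3.03 in KO and 2.49 in WT.

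Of the pathway lists above, only those of interferon-stimulated genes and class I antigen presentation held lower calls. The lower genes were not sorted into families of their own. The log2 ratios of the 15 lowest among those with at least 50 counts ran from -1.79 to -1.14, and these included Slc31a2, Ankrd49, Dusp18, Phyh, Fmod, Pgm2l1, Slfn8, Rcan2, Cnpy4, Selenop, Hcfc1r1, Col8a2, Igtp and Chst12. Slc31a2, a copper transporter gene, had 14 counts at 15 min and 52 at 0 min, a log2 ratio of -1.79 (-2.75 to -0.91). Fmod, which encodes the collagen-binding proteoglycan fibromodulin, had the most counts, 60 at 15 min and 163 at 0 min, a log2 ratio of -1.33 (-1.79 to -0.90). Hcfc1r1 overlaps Thoc6 on the opposite strand. Of the 180 lower genes 147 had their highest WT level at 0 min.

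Mitochondrial and collagen transcripts with high counts had negative ratios, of which that of mt-Nd1 passed 2-fold. The 9 mitochondrial rows kept had log2 ratios of -1.08 to -0.68 in WT, against -0.22 to 0.43 in KO, and mt-Nd1 was called lower with 448 counts at 15 min and 1019 at 0 min (-1.08, interval -1.24 to -0.92). Mitochondrial rows took 0.0729% of the remaining counts at 15 min and 0.143% at 0 min in WT, and 0.102% and 0.0932% at those times in KO. The collagen gene Col1a1 had 25409 counts at 15 min and 45090 at 0 min in WT (-0.72), Col1a2 25829 and 37555 (-0.43), and Col3a1 30071 and 40574 (-0.32). Fn1, another matrix gene with high counts, had 34338 counts at 15 min and 38305 at 0 min (-0.05), and 10 of the 18 contractile and matrix genes were above 0. Of the 12 fibroblast markers, which include the 3 collagen genes and Fn1, none was above 0 in WT and none was called. Their median was -0.24 in WT, against -0.05 in KO. In KO the 3 collagen genes were at -0.05, -0.07 and -0.04. Mitochondrial transcripts are made outside the nucleus and long-lived collagen mRNAs fill the fibroblast cytoplasm. The share of such RNA in the 2 chromatin preparations was not measured, and its part in the lower calls was not tested.

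After 15 min the lower genes stood higher again. Their median level was 5.83, 2.48, 3.89 and 4.23 CPM at 0, 15, 45 and 60 min in WT. Of the 180 genes 154 (85.6%) were above their 15 min level at 45 min and 153 (85.0%) at 60 min, against 48.8% and 49.7% of all genes kept. A low 15 min library is what chose these genes, so a higher level at any other time is favoured by the choice.

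The 127 higher genes parted into those that stood highest at 15 min and those that stood higher still at 45 or 60 min. Their highest WT level was at 15 min for 78 genes, at 45 min for 30 and at 60 min for 19. The choice by a high 15 min library favours that time likewise. Fos had 218, 448, 73 and 61 counts at 0, 15, 45 and 60 min in WT, so that it was below its starting count by 45 min. Dusp1 had 390, 1065, 294 and 202, and Apol8 28, 146, 29 and 19. Arc, at 105, 242, 75 and 89, and Rgs1, at 26, 64, 25 and 10, complete the 5 named genes with at least 50 counts that had the highest ratio of the 15 min level to the later ones. At the other end, Cxcl10 had 12, 71, 688 and 715 counts, Tnfaip3 109, 1086, 5115 and 3368, and Vcam1 708, 1403, 6154 and 4525, at the same times. Trim47, a ubiquitin ligase gene that overlaps Trim65 on the same strand, had 41, 87, 483 and 527, and Lif 110, 233, 838 and 965. In these 5 genes the 15 min count was a small part of what was reached later. Between both kinds stood Cxcl1, with 49, 577, 567 and 422 counts, and Junb, with 291, 1002, 974 and 777, whose 15 and 45 min counts were near each other.

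Some well-known NF-kB targets were not called at 15 min. The genes of this paragraph were chosen after their values were seen. Nfkbie had 55, 95, 1100 and 1211 counts at 0, 15, 45 and 60 min in WT, Bcl3, another nuclear IkB gene, 51, 81, 687 and 780, and the kinase gene Ripk2 113, 150, 2458 and 1903. Their log2 ratios over 0 min were 0.90, 0.78 and 0.52 at 15 min, and 4.42, 3.85 and 4.54 at 45 min. Csf1 likewise had 1254, 1455, 12164 and 13844 counts. Counts are taken as exonic, since the deposited lengths are those of exons, so reads in introns are not seen.

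**Figure D3:**
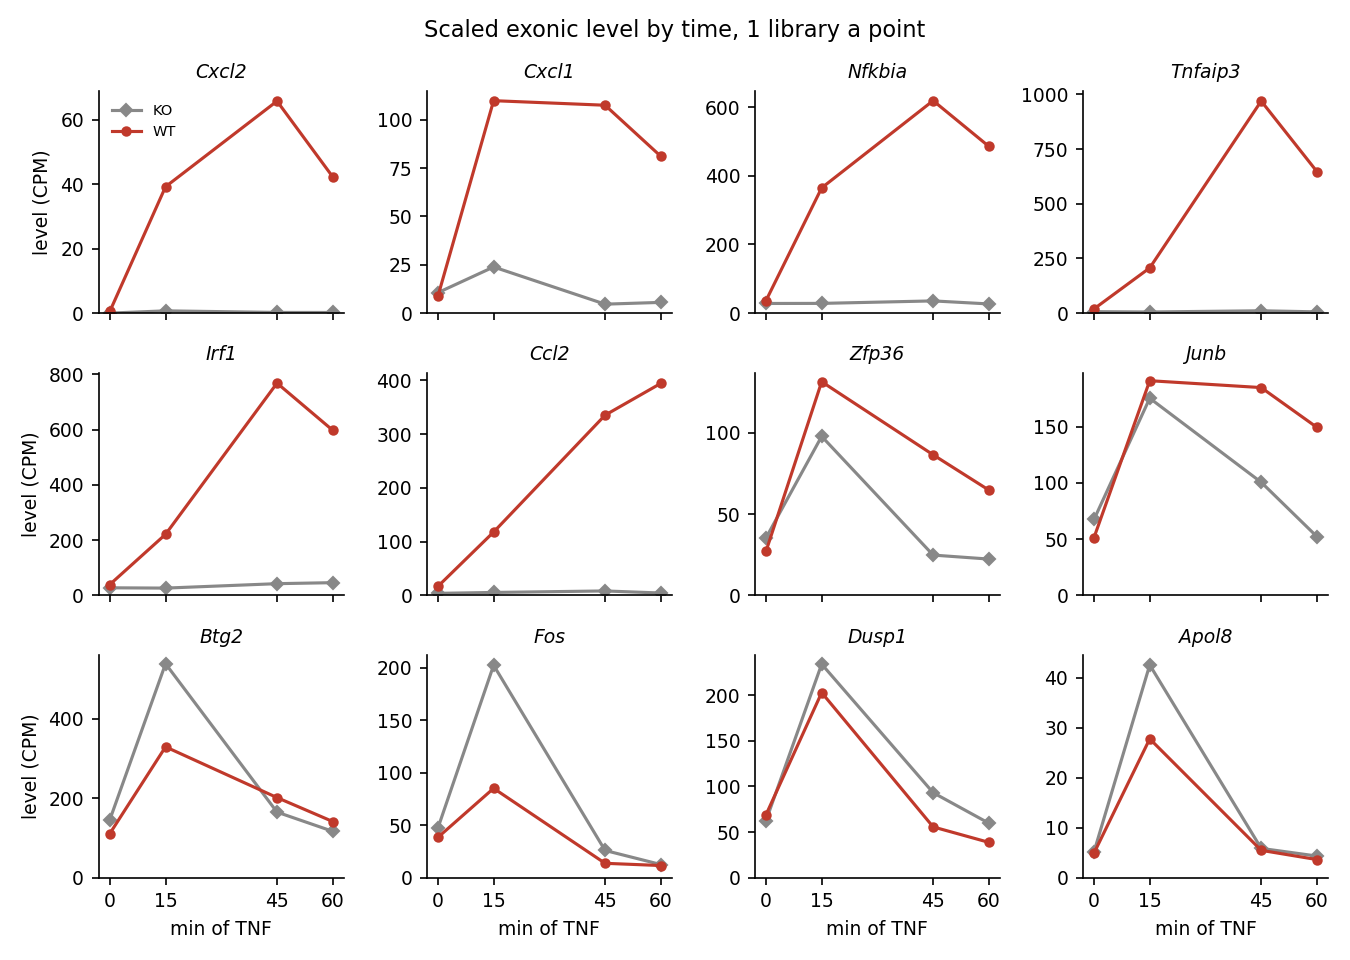
Scaled level (CPM) of 12 genes at 0, 15, 45 and 60 min in KO (grey diamonds) and WT (red dots), 1 library per point, with a separate axis for each gene. Fos, Dusp1 and Apol8 stand highest at 15 min in both genotypes, whereas Tnfaip3, Irf1 and Ccl2 climb past 15 min in WT and stay low in KO.

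The genotype label of the KO libraries names the loss of cRel and RelA. Rela held 306, 241, 291 and 324 counts at 0, 15, 45 and 60 min in KO, against 324, 406, 704 and 589 in WT, and Rel held 478, 308, 538 and 633 in KO, against 151, 173, 805 and 506 in WT. A count over a whole gene row does not check a deletion of part of it, so the genotype rests on the labels. In KO 12951 genes had at least 20 counts in the higher of the 15 and 0 min libraries. Of these 90 (0.695%) were higher at 15 min and 212 (1.64%) lower. The KO library at 0 min stood apart in its cartilage markers, whose sum was 111 CPM at 15 min and 1224 CPM at 0 min in KO, against 62.4 and 68.2 CPM at those times in WT. Of the 7 cartilage markers kept in KO 6 were lower at 15 min. Epithelial markers summed to 1.17 CPM at 15 min and 19.9 CPM at 0 min in KO, and the 2 kept were both lower. Every KO ratio of 15 min over 0 min given here has this 0 min library as its base.

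The WT-higher genes fell apart by what they did in KO. Of the 127 genes 89 were kept in KO, where 23 were called higher (25.8%, against 0.586% of all genes kept in both) and 1 lower, with a median log2 ratio of 0.40. Of the other 38 genes no ratio is given in KO. Among the 53 named genes with at least 50 WT counts, 29 had their top WT level at 15 min. In KO 17 of these 29 were higher (Cxcl1, Apol8, Ier3, Zfp36, Junb, Egr3, Btg2, Dusp1, Ccn2, Egr2, Arc, Atf3, Nr4a1, Fos, Ccn1, Ier2 and Ppp1r15a), 7 were not called and 5 had under 20 counts. Of the 15 genes with a top WT level at 45 min 1 was higher in KO, 12 were not called and 2 had under 20 counts. Of the 9 with a top at 60 min none was higher, 8 were not called and 1 had under 20 counts. Whether these shares differ was not tested.

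The inhibitor genes Nfkbia and Tnfaip3, and Irf1, were called in WT and not in KO. Nfkbia had 178, 121, 169 and 135 counts at 0, 15, 45 and 60 min in KO, and its log2 ratio at 15 min was 0.01 (-0.33 to 0.35) in KO, against 3.34 in WT. Tnfaip3 had 42, 22, 51 and 29 in KO, and was at -0.36 (-1.18 to 0.41) in KO, against 3.42 in WT. Irf1 had 176, 114, 203 and 234 in KO, and was at -0.06 (-0.41 to 0.29) in KO, against 2.48 in WT. Their KO intervals all hold 0 on the log2 scale and lie below the WT intervals. Of the 15 inhibitors and feedback regulators kept in KO none was called, and their KO median was -0.22. Cxcl2 held 3 counts at 15 min and 0 at 0 min in KO.

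Of the 11 serum-response genes called in WT, 8 were also called in KO, and the ratio was the higher in KO for some and in WT for others. Fos had 866 counts at 15 min and 300 at 0 min in KO, a log2 ratio of 2.10 (1.91 to 2.29), against 1.15 (0.91 to 1.39) in WT. Arc was at 2.49 (2.22 to 2.76) in KO, against 1.31 (0.98 to 1.66) in WT, and Ier2 at 1.89 (1.70 to 2.08) in KO, against 1.03 (0.82 to 1.25) in WT. Ccn1 was at 1.62 (1.54 to 1.69) in KO, against 1.05 (0.97 to 1.14) in WT. Dusp1, at 1.90 (1.74 to 2.08) in KO against 1.56 (1.39 to 1.73) in WT, and Btg2, at 1.88 (1.77 to 1.99) in KO against 1.57 (1.43 to 1.70) in WT, were nearer to each other. For these 6 genes the counting intervals of KO and WT do not overlap, with the KO ratio the higher. Of the 6, Fos is from the AP-1 list and Dusp1 from the list of MAP kinase phosphatases. Ccn2 lay the other way, at 1.19 (1.11 to 1.26) in KO against 1.38 (1.27 to 1.49) in WT. The intervals overlapped for Egr2 (1.57 in KO, 1.35 in WT), Nr4a1 (1.46 in KO, 1.29 in WT) and Egr3 (1.43 in KO, 1.71 in WT). Nr4a3, with the highest WT ratio of the serum-response list, was at -0.21 (-0.79 to 0.36) in KO against 1.96 (1.05 to 2.97) in WT, and Phlda1 (0.73 in KO, 1.43 in WT) and Plk3 (0.62 in KO, 1.08 in WT) were not called in KO. The level of Nr4a3 at 0 min was already 11.4 CPM in KO, against 2.30 CPM in WT. At 15 min it was 9.82 CPM in KO and 8.95 CPM in WT. Of the AP-1 genes 5 were called in KO (Atf3, Jun, Fosb, Junb, Fos) with a median of 0.88, and of the serum-response genes 11 with a median of 0.84. Jun was at 2.03 and called in KO, against 0.83 and not called in WT, and Egr1 at 1.41 in KO, against 0.64 in WT. Without a second culture the spread behind these differences is unknown.

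Some genes had a smaller ratio in KO than in WT and were called in both. Cxcl1 had 102 counts at 15 min and 67 at 0 min in KO (1.17, interval 0.72 to 1.64), against 577 and 49 in WT (3.67, interval 3.24 to 4.12). Ier3 was at 1.32 (0.96 to 1.68) in KO, against 2.40 (2.06 to 2.75) in WT, and Zfp36 at 1.47 (1.23 to 1.71) in KO, against 2.28 (2.03 to 2.54) in WT. Cxcl1 was below its starting count in KO, with 22 counts at 45 min and 28 at 60 min, against 567 and 422 in WT. Zfp36 had 118 and 113 in KO, against 456 and 337 in WT, and Ier3 had 281 and 169 in KO, against 421 and 357 in WT. Junb, at 1.38 (1.20 to 1.55) in KO against 1.89 (1.70 to 2.08) in WT, had 478 and 264 counts at 45 and 60 min in KO, against 974 and 777 in WT. Apol8 had 33, 182, 28 and 22 counts at 0, 15, 45 and 60 min in KO, against 28, 146, 29 and 19 in WT, and its ratios of 3.03 (2.49 to 3.61) in KO and 2.49 (1.90 to 3.13) in WT have overlapping intervals.

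**Figure D4:**
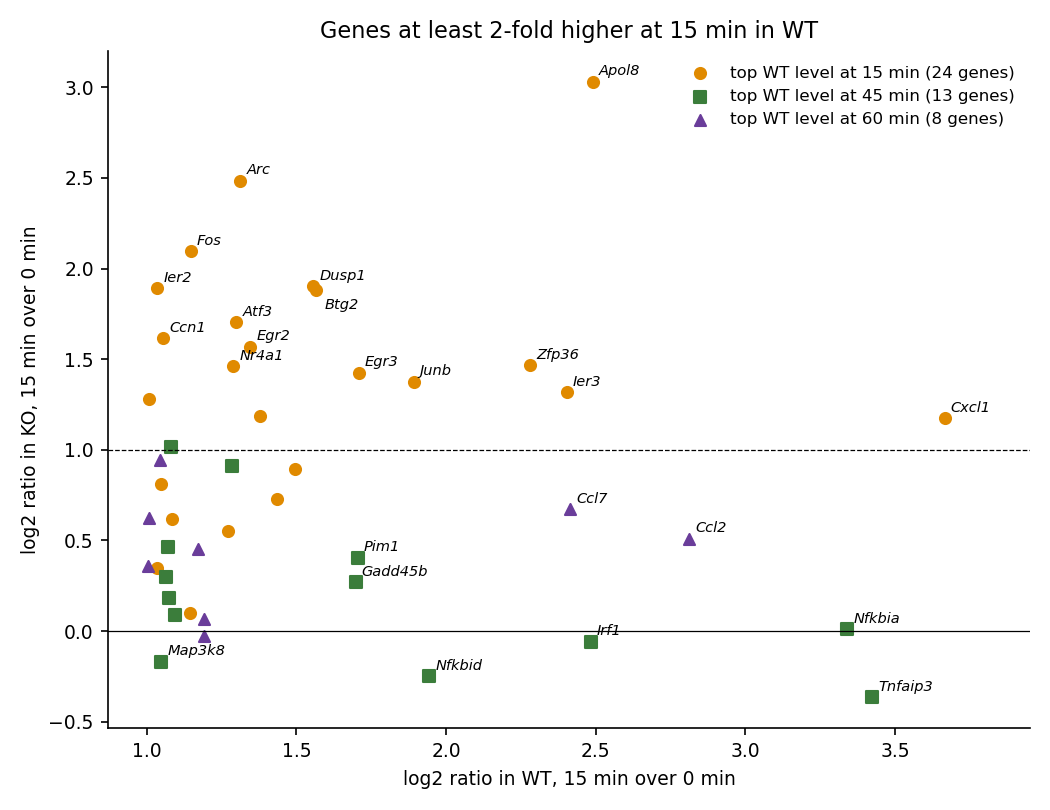
Log2 ratio of 15 min over 0 min in KO (vertical) against WT (horizontal) for the named genes called higher in WT that reached 20 counts in KO, coloured by the time of their top WT level; the dashed line is 2-fold in KO. Of the 24 genes with their top at 15 min 17 lie above it, and Nfkbia and Tnfaip3 lie near or below 0 in KO.

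Many WT-lower genes were also below 0 in KO. Of the 180 genes 132 were kept in KO, and 95 of them (72.0%) were below 0 there, against 48.7% of all genes kept in both. Their median in KO was -0.28, and 11 were called lower (8.33%, against 0.818% of all genes kept in both) and 1 higher. Fmod had 67 counts at 15 min and 203 at 0 min in KO (-1.03, interval -1.45 to -0.63), against 60 and 163 in WT (-1.33), and Ankrd49 had 15 and 50 in KO (-1.17), against 16 and 57 in WT (-1.73). Slc31a2 was at -0.53 (-1.23 to 0.14) in KO, against -1.79 in WT.

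The genes of the first wave were short. Protein-coding genes called higher had a median span of 6949 bases from start to end, against 25685.5 for all protein-coding genes kept, and a median of 5 separate exon blocks, against 10. Lower protein-coding genes were also shorter than all, with a median span of 13551.5 bases and 4 exon blocks. Of protein-coding genes under 5 kb 31 of 1100 (2.82%) were higher, and of those over 100 kb 4 of 1697 (0.236%). The share of lower genes fell along the same bins, at 3.0% and 0.177%, and short genes had fewer counts, with a median of 76 in the lowest bin and 299 in the highest. Among genes with at least 100 counts the higher share was 4.37% (20 of 458) under 5 kb, 17 of 2238 from 5 to 20 kb, 6 of 2324 from 20 to 50 kb, and 0 in 1393 and 1296 genes of the longer bins. The lower calls numbered 2, 5, 3, 0 and 0 in the same bins. Cxcl2 spans 2068 bases, Nfkbia 3237, Fos 3384 and Junb 1840, whereas Tnfaip3 spans 14748.

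**Figure D5:**
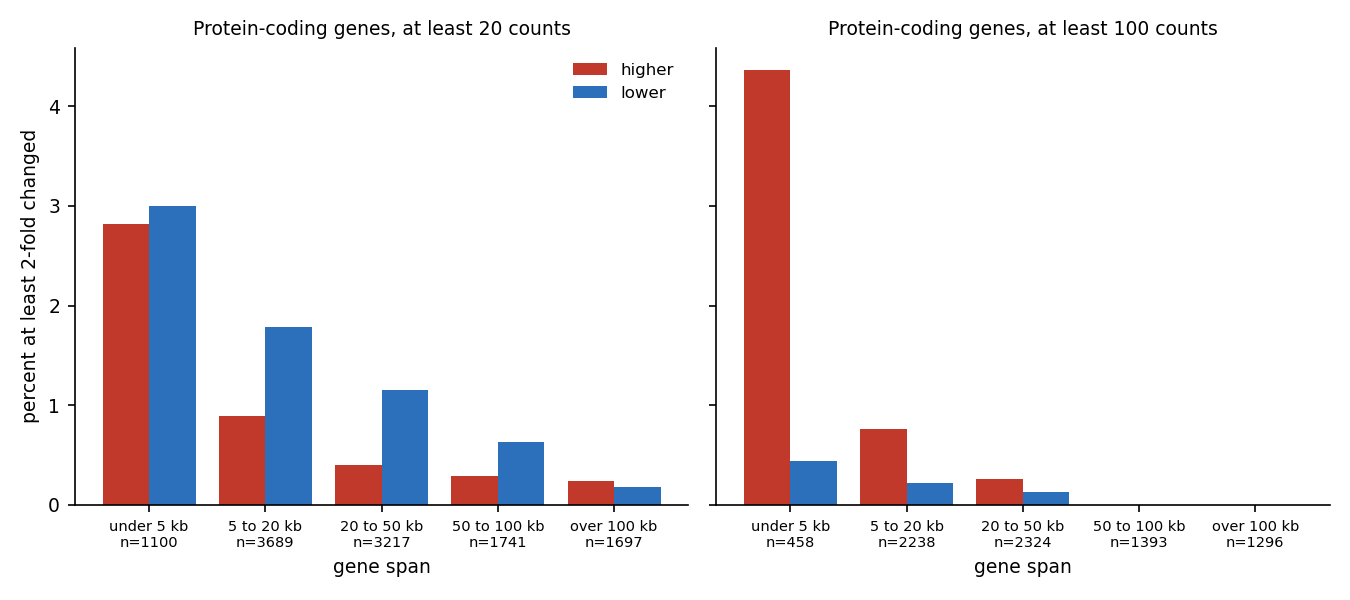
Percent of protein-coding genes called higher (red) or lower (blue) at 15 min in WT by gene span, for genes with at least 20 counts (left) and at least 100 counts (right). The higher share is largest under 5 kb in both panels, at 2.82% and 4.37%, while the lower share under 5 kb is 3.0% at 20 counts and 0.437% at 100 counts.

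Not all higher rows were conventional genes. Of the 127 higher rows 86 were protein-coding (67.7%, against 87.8% of all rows kept), 13 were snoRNA genes (of 97 snoRNA rows among the 13031), 2 were miRNA genes (of 74) and 37 (29.1%, against 10.4%) had a single exon. Of the 180 lower rows 150 were protein-coding and 0 were snoRNA genes. Of the 37 single-exon higher rows 20 lay inside another gene on the same strand, and in 1 of them that gene was called higher as well. That one was Mir1938, with 74 counts at 15 min and 21 at 0 min (1.92), inside Ifrd1, a transcriptional co-regulator gene with 1715 and 759 (1.28). Ifrd1 also holds the higher row Gm17024 (1.07). Since reads of a host transcript can fall on a row inside it, these rows are uncertain. The 3 snoRNA rows Gm25894, Gm24453 and Gm22744 lie within 0.767 kb of each other on chromosome 19. Without predicted gene models and rows of under 300 bases, 84 genes were higher and 140 lower.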

How the data were processed

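Chromatin-associated RNA (400 ng) was depleted of ribosomal RNA and made into stranded libraries read as single ends of 50 bases, per the labels' protocols. The submitters' processing notes name cutadapt 1.12, STAR, featureCounts 1.5.0, DESeq2 and the build mm10. The deposited values are raw counts per gene, with coordinates and exon lengths, per the file headers. No label or header gives the strand setting or the annotation release, so overlapping, antisense and near-identical genes are uncertain.

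Here 3 gene models were left out, and counts were scaled by TMM (edgeR 4.0.16, R 4.3.3) over 8 libraries and genes with at least 10 counts in 2 libraries. Ratios carry exact Clopper-Pearson intervals at 95% (scipy 1.17.1), which cover counting error only. PCR reads are not independent molecules, so even the counting error may be larger than these intervals show. A count of 0 allows up to 3 counts, which is 0.571 CPM at 15 min and 0.530 CPM at 0 min in WT. The ratio script was tested on simulated data. Named genes are the 15 highest and 15 lowest calls with at least 50 counts, without predicted models or rows under 300 bases, the 5 highest and 5 lowest by the ratio of the 15 min level to later ones, the subunits, and from each list the called members and those with the most counts up to 4. Values of some genes are not reported here. Other genes named were chosen after their values were seen. The comparison, its members and the lists were chosen with earlier results of these data known. Symbols came from the reference table by identifier, and promoters from RefSeq (GRCm38.p6). Alternatives were other scalings (DESeq2 1.42.0 size factors among them), count minimums, folds, interval levels and sets of rows.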

Additional observations from a re-analysis of the deposited data

Results flagged for a closer look

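Of the genes called at 15 min, 2 were called in opposite directions in KO and WT. The snoRNA gene Snora2b had a log2 ratio of -1.27 in KO, with 7 counts at 15 min and 25 at 0 min, against 1.69 in WT, with 21 and 7. Rwdd1 was at 1.12 in KO, with 25 counts at 15 min and 17 at 0 min, against -1.25 in WT, with 16 and 41. The difference was not tested in either gene. Snora2b lies inside Kansl2 on the same strand.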

How the results depend on the processing

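The counts of 127 higher and 180 lower genes were within 1.5 times of themselves with DESeq2 size factors, TMM over both WT libraries alone, the remaining total, and 0.5 counts added. The library total with the 3 gene models gave 48 higher and 700 lower, a minimum of 50 counts 63 and 41, no minimum 198 and 298, and a fold of 1.5 gave 391 and 641. With 99% intervals 106 were lower. Without predicted models and short rows 84 were higher, and 76 with overlapping rows left out as well, an alternative chosen after seeing the data. Of 708 values of 118 named genes under 6 settings 82 moved and 25, in 16 genes, changed sign. None of these genes was called, and their log2 ratios were at most 0.304 in size. Of the 25, 15 were with the 3 models in the total. The remaining total ended 10 of 98 named calls, among them Cebpb, Pnrc1, Ppp1r15a, Ier2, Nfkbiz, Rgs16, Map1lc3a, Map3k8 and Ccn1. The total with the 3 models ended 29, Fos, Atf3 and Nr4a1 among them. No paired analysis was possible because each genotype and time has 1 library, and for the same reason no library could be left out. Ratios at 20 to 49 counts are the least certain.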
